A study of Mus musculus with 8 samples.

Results

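The miR-30 family was measured in the ventral part of the lumbar spinal cord from wild type and MLC/SOD1G93A mice. Its members were the assays of the TaqMan card named mmu-miR-30a, mmu-miR-30b, mmu-miR-30c, mmu-miR-30d and mmu-miR-30e, 5 of the 375 miRNA assays on the card, taken by name and not by their values. They are written without the prefix from here on. The wild type group held 4 samples from mice of the FVB strain, and the other group 4 samples from mice on the FVB background that carried the SOD1G93A transgene, a mutant superoxide dismutase 1, under the myosin light chain (MLC) promoter. That promoter is active in skeletal muscle, so the spinal cord examined is not the tissue in which the transgene is driven. All mice were 4 months old, no other allele or treatment is named, and 600 ng of total RNA per sample was reverse transcribed. Total RNA of a tissue piece does not tell fewer cells of a type from less RNA per cell.

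A miRNA guides Argonaute proteins to partly complementary sites in mRNAs, and the seed, bases 2 to 8 from its 5′ end, sets most of the pairing. miRNAs with the same seed can share targets, and they form a family. The miR-30 family is abundant in many tissues, among them brain, heart and kidney, and its known targets include the autophagy gene Beclin 1 and BDNF for miR-30a, the matrix factor CTGF for miR-30c and the Notch ligand Dll4 for miR-30b and miR-30c.

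The mouse has 6 miR-30 genes in 3 clusters. Mir30b lies beside Mir30d, Mir30a beside Mir30c-2, and Mir30c-1 beside Mir30e, with no other gene of the RefSeq table between the genes of a cluster (GRCm38.p6). The Nfyc gene, which encodes a subunit of the transcription factor NF-Y, spans Mir30c-1 and Mir30e. Because Mir30c-1 and Mir30c-2 give the same mature sequence, the miR-30c assay cannot tell the clusters apart.

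Mature sequences from RefSeq (GRCm38.p6) matched 3 of the 5 members by name, as the 5p arm. They are printed to show the shared seed, in capitals, and the bases beyond it at which these members differ. miR-384-5p, which is not a member, was the one other miRNA with this seed among 1738 mature records, and it has an assay on the card.
miR-30a: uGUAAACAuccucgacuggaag
miR-30e: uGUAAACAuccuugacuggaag
miR-30c: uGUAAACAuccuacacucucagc
miR-384-5p: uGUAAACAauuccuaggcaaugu
miR-30a lies at chr1:23272274-23272295 (plus strand) and miR-30e at chr4:120772660-120772681 (minus strand). miR-30c lies at chr1:23291714-23291736 (plus strand) and again at chr4:120769584-120769606 (minus strand), and miR-384-5p at chrX:105344332-105344354 (minus strand). Counted from the 5′ end, miR-30e differed from miR-30a at 1 of 22 positions (C13U). miR-30c differed from it at 5 of 22 positions (C13A, G14C, G18C, G19U, A20C). Beyond base 8, miR-384-5p was identical to miR-30a at 4 of 14 positions. Signal of one member's assay on another member's RNA was not tested, and the single base between miR-30a and miR-30e leaves the separation of these assays uncertain.

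A card is a plate of quantitative PCR assays that gives a threshold cycle (Ct) for each miRNA, and each cycle less corresponds to roughly double the amount of RNA. Each sample had 1 card. The wild type cards are called 1 to 4 and the MLC/SOD1G93A cards 5a to 8a, as in the column names. A Ct over 35 counted as missing, which left 239 to 256 measured miRNAs per card, and 3 cards stood apart in U6. U6 is a small nuclear RNA that serves as the reference in 4 wells of each card. Those wells spread over 2.14 cycles on card 7a and 1.97 on card 8a, against 0.39 to 1.05 on the other cards, and the lowest U6 mean Ct of each group was on card 7a (16.88) and on wild type 1 (17.45). The neuronal miRNAs miR-124, miR-9, miR-128a and miR-132 and the oligodendrocyte miRNAs miR-219, miR-338-3p and miR-138 were measured on all 8 cards, with mean Ct of 21.6 to 30.3.

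All 5 members of the miR-30 family were measured on all 8 cards, so none depended on the limit for missing values. The order of Ct was the same on 8 of 8 cards: miR-30c came first, followed by miR-30b, miR-30e, miR-30a and miR-30d. For miR-30c the Ct was 22.62, 22.15, 22.22 and 22.20 on wild type cards 1 to 4, and 22.58, 22.94, 23.13 and 22.14 on cards 5a to 8a. Its mean of 22.50 ranked 4 among the 190 miRNAs measured on all cards. The groups overlapped, since card 8a had the lowest Ct of all and 7a the highest.

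For miR-30b the Ct ran from 24.66 to 25.48 in wild type and from 24.76 to 25.00 in MLC/SOD1G93A, and its mean of 24.90 ranked 21. For miR-30e it ran from 25.11 to 25.70 and from 25.33 to 25.90, with a mean of 25.50 and rank 27. The least abundant members by Ct were miR-30a and miR-30d. The Ct of miR-30a was 27.14, 26.15, 25.92 and 26.03 in wild type and 26.73, 26.41, 27.06 and 26.12 in MLC/SOD1G93A, with rank 44. For miR-30d it was 28.13, 26.88, 26.96 and 26.73 in wild type and 27.39, 27.10, 27.55 and 26.93 in MLC/SOD1G93A, with rank 56. Even miR-30d lay below the median of the mean Ct, 28.8, over the 190 miRNAs. The same-seed miR-384-5p, studied in hippocampal synaptic plasticity, lay between miR-30c and miR-30b, at 24.40 to 24.76 in wild type and 24.42 to 24.95 in MLC/SOD1G93A.

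**Figure D1:**
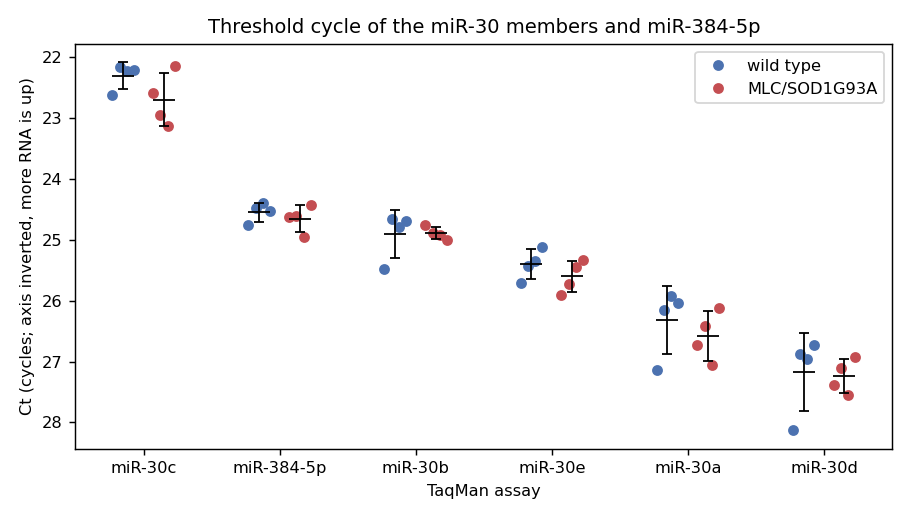
Threshold cycle (Ct, cycles, axis inverted so that more RNA is up) of the 5 miR-30 members and of miR-384-5p on each card. Points are cards, bars are mean and SD (n = 4 per group). The assays step down from miR-30c to miR-30d in both groups, and for each of them the groups overlap.

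The steps between neighbours in this order were wider than their spread between cards. The Ct of miR-30b lay above that of miR-30c by 2.40 ± 0.40 cycles (SD, n = 8), the widest step. The step from miR-30b to miR-30e was 0.60 ± 0.30, that from miR-30e to miR-30a 0.95 ± 0.38 and that from miR-30a to miR-30d 0.76 ± 0.18 cycles (SD, n = 8). Every step was positive on 8 of 8 cards. The neighbours and the direction of each step were taken from the mean Ct of these same cards, so the steps are a description with no test. From miR-30d to miR-30c the mean Ct differed by 4.71 cycles, which would be a 26.2-fold difference in level if every assay doubled its product each cycle. Assays can differ in efficiency, and this was not tested, so the order is one of Ct.

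The question of the design is whether SOD1G93A in muscle goes with altered miRNAs in the spinal cord. None of the 5 members of the miR-30 family differed between MLC/SOD1G93A and wild type mice beyond the spread between cards. The result was the same with U6 as the reference and with the global mean, which averages the Ct of the 190 miRNAs measured on all cards. Both references are named in the methods of the study. Log2 expression was the reference Ct less that of the miRNA. The log2 change is MLC/SOD1G93A minus wild type. The study itself lists miR-30a and miR-30e among its significantly lower miRNAs. The fold decreases it gives lie beyond the 95% intervals found here for both miRNAs, with either reference. With the authors' own U6-normalized values the log2 change was -0.37 for miR-30a and -0.30 for miR-30e. The reason for this difference from the study was not tested.

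Relative to U6, the log2 expression of miR-30a, which was named above for Beclin 1 and BDNF, was -9.69, -7.95, -7.48 and -7.89 in wild type and -8.23, -7.91, -10.18 and -8.16 in MLC/SOD1G93A. That of miR-30c was -5.17, -3.95, -3.78 and -4.06 in wild type and -4.08, -4.44, -6.25 and -4.18 in MLC/SOD1G93A. For both, wild type 1 and card 7a were the low cards of their groups. The same held for miR-30b, miR-30d and miR-30e: wild type 1 was the lowest wild type card for 5 of 5 members and 7a the lowest MLC/SOD1G93A card for 5 of 5. Wild type 1 lay 1.59 below the mean of the other wild type cards and 7a lay 1.85 below the other MLC/SOD1G93A cards (medians over the members, log2).

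The log2 changes relative to U6 were negative for 5 of 5 members, as they were for 77.5% of the 227 tested miRNAs. The change was -0.37 (95% interval -1.78 to 1.04) for miR-30a and -0.09 (-1.40 to 1.22) for miR-30b. It was -0.50 (-1.82 to 0.83) for miR-30c, -0.17 (-1.56 to 1.23) for miR-30d and -0.30 (-1.54 to 0.93) for miR-30e. The standard errors, 0.59 to 0.67, exceeded every one of these changes. By limma with Benjamini-Hochberg adjustment over the 227 miRNAs, the adjusted p was 0.975 for each member. At an adjusted p under 0.05, limma called 0 of 5 members lower, against 0% of all tested miRNAs, and 0 higher, against 0%. At an unadjusted p under 0.05 it called 0 members, against 2.2% lower and 0.441% higher over all tested. The exact Mann-Whitney test called 0 members at an unadjusted p under 0.05, against 0 lower and 0 higher of all 227 miRNAs. Its smallest p with 4 cards a group is 0.0286, so an adjusted p under 0.05 would need many miRNAs to separate. A count of 0 members at that level thus says nothing about the members. The median change of the members, -0.30, lay beside -0.31 over all tested miRNAs. Without card 7a the median was 0.15, and without wild type 1 it was -0.69.

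Relative to the global mean, the cards drew together. The SD between cards, pooled over the groups, was 0.28 as the median of the members, in place of 0.85 relative to U6. Over the 190 miRNAs the corresponding medians were 0.43 and 0.92. The log2 expression of miR-30b was 3.52, 3.82, 3.33 and 3.34 in wild type and 4.02, 3.99, 3.77 and 3.27 in MLC/SOD1G93A. The highest cards were 5a and 6a and the lowest was 8a, so the groups overlapped. That of miR-30d was 0.87, 1.60, 1.15 and 1.29 in wild type and 1.39, 1.77, 1.14 and 1.34 in MLC/SOD1G93A. Here too the groups overlapped, with wild type 1 lowest and 6a highest.

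**Figure D2:**
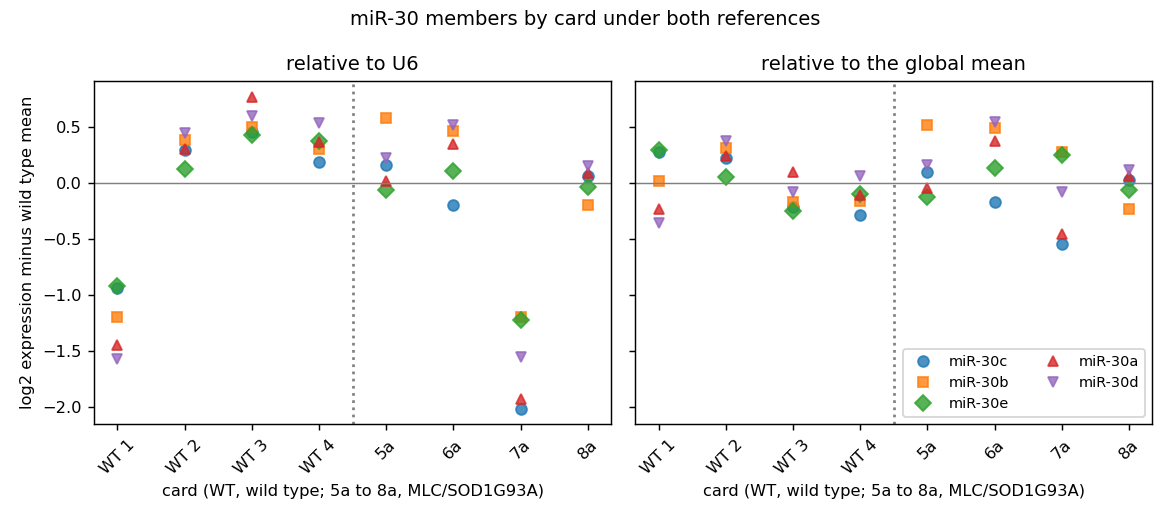
Log2 expression of each miR-30 member on each card, as the difference from its wild type mean, relative to U6 (left) and to the global mean (right). On the left all members are low on wild type 1 and on card 7a, and on the right the points stay between -0.54 and 0.55.

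On this scale the change was 0.26 (95% interval -0.30 to 0.82) for miR-30b and 0.18 (-0.37 to 0.74) for miR-30d. It was 0.05 (-0.45 to 0.54) for miR-30e, -0.02 (-0.57 to 0.53) for miR-30a and -0.15 (-0.70 to 0.41) for miR-30c. The adjusted p from limma ran from 0.829 for miR-30b to 0.987 for miR-30a. Of the 5 members, 2 had a negative change, against 46.3% of all tested miRNAs. Limma called 0 members at an adjusted p under 0.05, against 0% lower and 0% higher, and 0 at an unadjusted p under 0.05, against 5.73% lower and 3.52% higher. The median change was 0.05 for the members and 0.04 for all tested miRNAs. These intervals are narrower than those relative to U6 and at their widest reach a ratio of MLC/SOD1G93A to wild type of 0.614 for miR-30c and 1.77 for miR-30b.

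In a two-sided exact permutation test, which runs through 70 divisions of the 8 cards, each member was tested singly. The exact permutation p ran from 0.457 to 0.914 over the 5 members relative to U6 and from 0.314 to 0.943 relative to the global mean. The smallest p such a test can give is 0.0286. No member separated the groups on either scale, where 1.32% of all tested miRNAs did so as lower and 0.441% as higher relative to U6. Relative to the global mean the groups were apart for 2.2% as lower and 2.2% as higher. These shares include miRNAs missing on a card of a group, where separation comes more easily, while every member had all 8. In the exact Mann-Whitney test, an unadjusted p under 0.05 needs full separation of 4 cards from 4. Relative to U6 it gave 0 lower and 0 higher of the 227 miRNAs, and relative to the global mean 4 and 2.

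**Figure D3:**
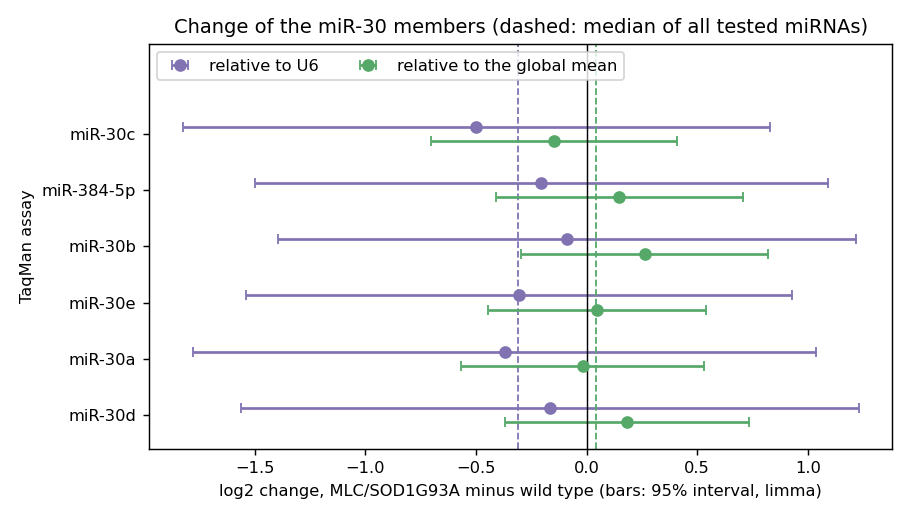
Log2 change (MLC/SOD1G93A minus wild type) of the miR-30 members and miR-384-5p with its 95% interval from limma, relative to U6 and to the global mean. Dashed lines are the medians of all 227 tested miRNAs, -0.31 and 0.04, and every interval holds 0 and that median.

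Another reference moves all members by the same amount, so their order by log2 change stays fixed while the sign does not. miR-30c had the lowest and miR-30b the highest change under every reference tried. The median change of the members was 0.635 with Y1, a small cytoplasmic RNA, and -2.58 with U87, a small nucleolar RNA whose Ct was 18.40 on card 8a and 27.87 to 29.54 on the others. With Y1, miR-30b (0.85) and miR-30d (0.77) had an unadjusted p under 0.05, and both had an adjusted p of 0.163 in limma. With Y1, 67 of the 227 miRNAs were higher at an unadjusted p under 0.05.

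**Figure D4:**
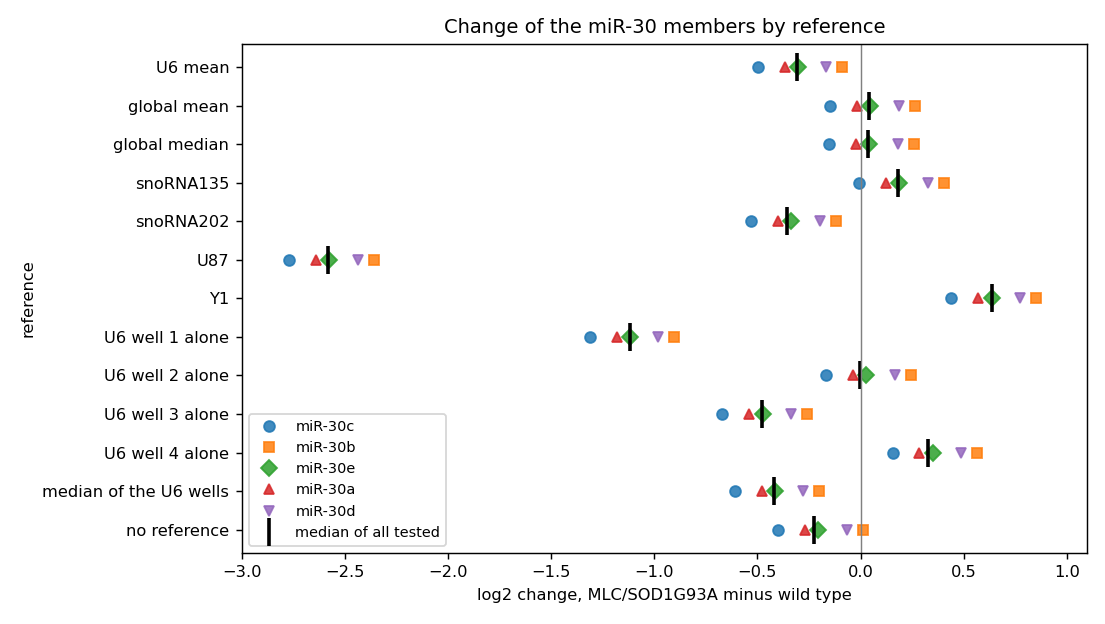
Log2 change of each miR-30 member (MLC/SOD1G93A minus wild type) under 13 references, with the median of all tested miRNAs as a black bar. The members keep their order and move with that median, from -2.58 with U87 to 0.635 with Y1.

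The Ct difference between cluster partners needs no reference, since both wells lie on one card. For miR-30d minus miR-30b it was 2.65, 2.22, 2.18 and 2.05 cycles in wild type and 2.63, 2.22, 2.63 and 1.93 in MLC/SOD1G93A. The groups overlapped almost fully, and the difference between their means was 0.08 cycles (95% interval -0.72 to 0.58). For miR-30a minus miR-30c it was 4.52, 4.00, 3.70 and 3.83 in wild type and 4.15, 3.47, 3.93 and 3.98 in MLC/SOD1G93A. The means differed by -0.13 cycles (-1.05 to 0.45), with the highest value on wild type 1 and the lowest on 6a. Without wild type 1 the difference was 0.039 and without 6a it was 0.0075 cycles. For miR-30e minus miR-30c it was 3.08, 3.27, 3.13 and 2.91 in wild type and 3.32, 2.79, 2.31 and 3.19 in MLC/SOD1G93A. The means differed by -0.20 cycles (-0.96 to 0.41), and card 7a, at 2.31, was the lowest. Without card 7a that difference was 0.0025 cycles. Two-sided exact permutation tests gave p = 0.829, 0.629 and 0.514, each 0.829 after Benjamini-Hochberg adjustment over the 3 pairs. The intervals come from inverting these tests, and they hold the differences that the tests did not reject with 4 cards a group.

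**Figure D5:**
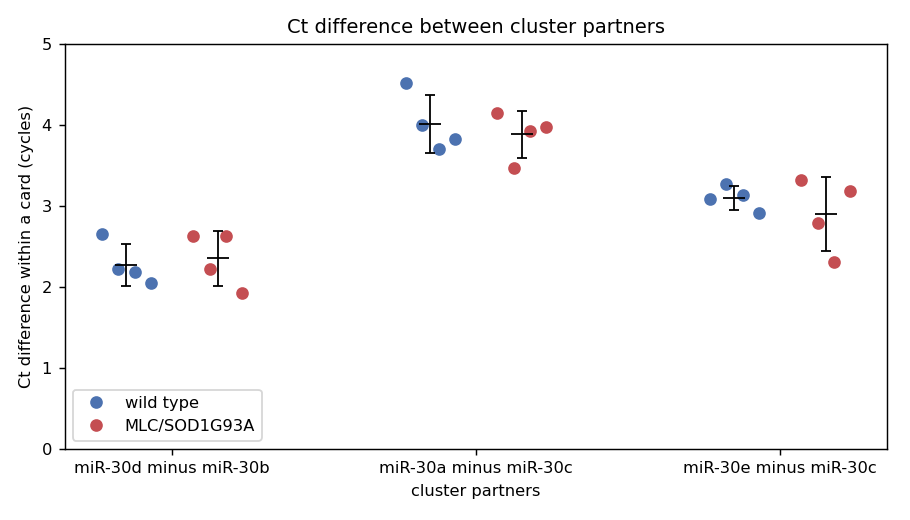
Ct difference (cycles) between the assays of cluster partners on the same card. Points are cards, bars are mean and SD (n = 4 per group). The groups overlap for all 3 pairs, and the values stay between 1.93 and 4.52.

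Members of the family kept a steadier distance from each other than most miRNAs did. The pooled SD of the Ct difference within a card was 0.15 to 0.41 cycles over the 10 pairs of members, against a median of 0.65 over all 17955 pairs of miRNAs measured on all cards. The steadiest pair was miR-30a and miR-30d, at 0.15 cycles, which are not cluster partners, and 0.278% of all pairs lay lower. The cluster partners followed, after miR-30b and miR-30e at 0.30, with 0.30 for miR-30b and miR-30d, 0.33 for miR-30a and miR-30c and 0.34 for miR-30c and miR-30e. Assays of lower Ct also varied less: relative to the global mean the median pooled SD was 0.36 for the 95 miRNAs at or below the median Ct and 0.49 for the 95 above it. All 5 members are among the former, and the part of level in their small SDs was not tested.

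The same-seed miR-384-5p had a log2 change of -0.20 (95% interval -1.50 to 1.09) relative to U6 and 0.15 (-0.41 to 0.71) relative to the global mean, with adjusted p of 0.975 and 0.955 from limma. Both changes lay within the range of the 5 members.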

How the data were processed

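Ct values of TaqMan card A were given by the authors for 8 cards, from Megaplex reverse transcription and SDS RQ Manager, with undetermined wells marked and values over 35 kept. The authors also deposited a log2 table, the Ct minus the mean of 4 U6 wells. It matched the Ct table within 0.0075 for the members and was used as an alternative. A table of the authors' ratios between the groups was not used.

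Here a Ct over 35 was set as missing, and a miRNA was tested when at least 3 cards of each group measured it (227 miRNAs). limma 3.58.1 in R 4.3.3 was fitted over all of them, without covariates, with Benjamini-Hochberg adjustment, and was tested on simulated data. The simulated cards had independent noise of equal size, no shared shift and no missing values, so they check the code only. Single values were compared with exact permutation tests. A sign-flip test of the Ct steps between neighbours was also run and is not reported, since the order came from the same cards. Cards give no read depth, so their number limits precision. The labels do not tie each sample to a separate mouse. The p-values therefore set a group difference against the spread between these 8 samples, which may be technical. Wild type columns were matched to samples by title, and MLC/SOD1G93A columns, numbered 5a to 8a, to their group only.

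The miRNAs named are the 5 members, any assay with their seed, the 3 miRNAs most like their mean by Pearson r, and cell type markers. Members and lists were chosen with earlier results of these data known. Alternatives were other references, Ct limits of 32 and 40, a filter on missing values, further tests and leaving out each card. Card B and the mRNA array were not analysed here.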

Additional observations from a re-analysis of the deposited data

Results flagged for a closer look

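In groups of 4 cards, the gap from the outermost card to its neighbour was divided by the whole range. A card stood apart in 5 of 30 such groups. Chance alone gives about 5%, and the groups share cards and the U6 reference. Wild type 1 stood apart for miR-30b relative to U6, at -8.03 (other wild type cards -6.54 to -6.34), and for miR-30d, at -10.68 (others -8.68 to -8.52). Card 7a stood apart for miR-30a relative to U6, at -10.18 (other MLC/SOD1G93A cards -8.23 to -7.91), for miR-30c, at -6.25 (others -4.44 to -4.08), and for miR-30e, at -8.56 (others -7.40 to -7.23). Relative to the global mean, and for the Ct differences between cluster partners, 0 groups held such a card. The Ct of the members without a reference was not among these groups. It was highest of the wild type cards on wild type 1 for 5 of 5 members, by 0.77 cycles over the other wild type cards. Card 7a had the highest Ct of its group for 3 of 5 members, and its gap was 0.41 cycles (medians over the members). Wild type 1 also had the highest global mean Ct of the 8 cards (29.00). The U6 mean Ct of both cards was the lowest of its group. The parts of U6 and of the members' own Ct in these values were not tested beyond the change of reference.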

How the results depend on the processing

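No member passed an adjusted p of 0.05 in limma under any reference, Ct limit, rule for missing values or left-out card that was run. Nor did any in an ordinary linear model or in the exact Mann-Whitney test, which can hardly reach that level here. Over all tested miRNAs the count was 0 as well, with 2 exceptions relative to U6. These were 4 of 227 with U6 well 1 alone and 4 of 217 without wild type 1. The smallest adjusted p of a member in limma was 0.163, with Y1. The rule for missing values and the other tests leave the size of a member's change as it was by construction, as the Ct limits do relative to U6, and another reference moves all 5 members by one amount. In the order miR-30a to miR-30e, the changes turned positive with Y1 (0.57, 0.85, 0.44, 0.77 and 0.635) and with U6 well 4 alone (0.285, 0.565, 0.155, 0.49 and 0.35). With snoRNA135 those of miR-30a (0.12), miR-30b (0.40), miR-30d (0.325) and miR-30e (0.19) did. For miR-30b, miR-30d and miR-30e the values were 0.26, 0.18 and 0.047 with the global mean, 0.26, 0.18 and 0.0425 with the median Ct and 0.24, 0.165 and 0.0275 with U6 well 2 alone. With no reference miR-30b was at 0.01. The median of the members was 0.047 with the global mean, 0.0425 with the median Ct, 0.19 with snoRNA135, 0.635 with Y1, 0.0275 with U6 well 2 alone, 0.35 with U6 well 4 alone and -2.58 with U87. The cause was not tested.

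Leaving out each card moved the changes relative to U6 from -0.85 to 0.15 for miR-30a, -0.49 to 0.28 for miR-30b, -0.81 to 0.0054 for miR-30c, -0.69 to 0.30 for miR-30d and -0.61 to 0.0029 for miR-30e. The lowest values were without wild type 1 and the highest without card 7a. The median ran from -0.69 to 0.15. Relative to the global mean miR-30a ran from -0.15 (without card 6a) to 0.12 (without 7a), miR-30b from 0.19 (without 6a) to 0.39 (without 8a) and miR-30c from -0.24 (without wild type 4) to -0.021 (without 7a). There miR-30d ran from 0.058 (without wild type 1) to 0.31 (without wild type 2), miR-30e from -0.036 (without wild type 3) to 0.14 (without wild type 1) and the median from 0.013 (without wild type 4) to 0.12 (without 7a). The partner differences ran from -0.23 to 0.039 for miR-30a minus miR-30c, -0.015 to 0.22 for miR-30d minus miR-30b and -0.33 to 0.0025 for miR-30e minus miR-30c. In wild type cards alone the order steps were 2.60, 0.495, 0.915 and 0.865 cycles, and in MLC/SOD1G93A cards alone 2.19, 0.71, 0.98 and 0.66. They kept their direction. The groups were compared as unpaired, since the sample labels name no pairs.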

Other observations

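Over the 8 cards, the mean of the miR-30 members relative to the global mean lay between 3.07 and 3.46, highest on card 6a and on wild type 2. Among 185 other miRNAs measured on all cards, those most like it were miR-335-3p (Pearson r = 0.88), miR-98 (r = 0.87), a let-7 family member, and miR-543 (r = 0.81), and miR-384-5p came at place 5 (r = 0.75). These r values over 8 cards share the reference and are a description. Between members, r on this scale ran from -0.37 for miR-30a and miR-30e to 0.78 for miR-30a and miR-30d.

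The marker miRNAs of other cells were measured as well. Relative to the global mean, 0 of 2 blood, 0 of 3 skeletal muscle, 0 of 4 neuronal, 1 of 3 oligodendrocyte and 1 of 4 leukocyte and microglia miRNAs tested were lower at an unadjusted p under 0.05 in limma, where 5.73% of all tested miRNAs were, and 0 of them had an adjusted p under 0.05. The median log2 change on this scale was -0.51 for the blood, -0.10 for the skeletal muscle, -0.11 for the neuronal, -0.11 for the oligodendrocyte and -0.37 for the leukocyte and microglia miRNAs, against 0.04 over all tested miRNAs. The mean over the blood list ran from -0.13 to 1.88 on the wild type and from -0.25 to 0.66 on the MLC/SOD1G93A cards. In the same order of groups, that over the leukocyte and microglia list ran from -0.092 to 0.86 and from -0.38 to 0.072. Over the oligodendrocyte list it ran from 1.70 to 2.44 and from 1.45 to 1.89. For the neuronal list it was 2.90 to 3.07 and 2.66 to 3.13, and for the skeletal muscle list 1.41 to 1.97 and 0.91 to 2.49. The groups overlapped for every list. The part of these cells in the values of the miR-30 members was not tested.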
